A study of Mus musculus with 36 samples.

Results

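Expression of 8 genes of the muscle atrophy programme, Trim63, Trim54, Trim55, Fbxo32, Fbxo40, Foxo1, Foxo3 and Klhl31, was followed in 2 heart chambers of CUG960 mice, the left ventricle and the atria. They were taken by their symbols from the deposited expression tables, 8 of 55291 symbols, and all 8 were among the 19231 genes with enough reads for testing. RNA came from 21-week-old mice of the genotype TREDT960I (Hom)/MHCrtTA (Hem), in which dox turns on an RNA with 960 interrupted CUG repeats through a transactivator driven by the cardiomyocyte promoter α-MHC, so the repeat RNA is made in heart muscle cells and not in the whole animal. Each of 6 cohorts gave 3 libraries per chamber, 36 in all. Mice of the +dox cohort ate dox from postnatal day 1, –dox mice never received it, and +/–dox mice were taken off it at 9 weeks. In the other cohorts (MBNL1, MBNL2 and MBNL1+MBNL2) dox continued, and the mice were given AAV9 with tagged human MBNL cDNAs (3XFLAG-MBNL1, 3XMYC-MBNL2 or both vectors) under the human TNNT2 promoter at 9 weeks, 12 weeks before the tissue was taken. The labels name no vector for the +dox cohort, so carrying a vector and overexpressing MBNL cannot be told apart in these comparisons. By Xist, the RNA of the inactive X chromosome, replicates 1 and 2 of each cohort were male and replicate 3 female (26 libraries at 0.01 to 0.15 TPM and 10 at 13.57 to 41.24 TPM), except in MBNL1+MBNL2 mice, which were all male. The same counts of males and females are given by the study. The comparisons address whether loss of the repeat RNA, or more MBNL protein in its presence, goes with a change in these genes. All mice had the same genotype, so where cohorts differ in dox, dox itself and the repeat RNA cannot be told apart.

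Muscle adapts its mass by the balance of synthesis and degradation, and in wasting muscle the ubiquitin ligases MuRF1 (Trim63) and atrogin-1 (Fbxo32) are the classical markers of degradation. MuRF1 and its relatives MuRF3 (Trim54) and MuRF2 (Trim55) are RING-finger ligases that sit on the sarcomere and on microtubules, whereas atrogin-1 and Fbxo40 are F-box proteins, the substrate-binding part of SCF ligases. Fbxo40 is known for marking the insulin receptor substrate IRS1 for degradation, and Klhl31 is a kelch-like protein of striated muscle whose family pairs with cullin-3. FoxO1 and FoxO3 (Foxo1, Foxo3) are the transcription factors that drive Trim63 and Fbxo32 when insulin and Akt signalling is low, mainly through a change in their place in the cell, which RNA levels do not show.

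The genes lie apart in the genome. On GRCm38 with GENCODE vM21 annotation they were found on chromosome 4 (Trim63, ENSMUSG00000028834.13, 134315120 to 134329629, plus strand), chromosome 5 (Trim54, ENSMUSG00000062077.14, 31116712 to 31137630, plus), chromosome 3 (Trim55, ENSMUSG00000060913.6, 19644474 to 19692421, plus, and Foxo1, ENSMUSG00000044167.6, 52268336 to 52353221, plus), chromosome 15 (Fbxo32, ENSMUSG00000022358.7, 58175879 to 58214932, minus), chromosome 16 (Fbxo40, ENSMUSG00000047746.14, 36963460 to 36990467, minus), chromosome 10 (Foxo3, ENSMUSG00000048756.11, 42181841 to 42276755, minus) and chromosome 9 (Klhl31, ENSMUSG00000044938.8, 77636500 to 77660127, plus). Trim54, Trim55, Fbxo32 and Foxo1 overlap other annotated genes, 3 of them antisense, and the strand setting of the counting is not given in the sources used here, but the 5 overlapping genes held at most 0.676% of the reads of the member they overlap.

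RefSeq promoters (GRCm38.p6, 250 bases before to 50 after the start) were given for 6 of the 8 genes, with none for Fbxo32 and Trim55. Those of Trim63 and Trim54, both higher in the ventricle once dox was removed, and of Fbxo40, the member with the widest gap between the chambers, are shown 5′ to 3′ on the strand of the gene. Capitals mark matches on either strand to the FoxO motif GTAAACA and the muscle E-box CAGCTG. These motifs do not overlap in the windows shown, and Fbxo40 is shown for the first of its 2 starts.
Trim63, chr4:134314870-134315169, plus: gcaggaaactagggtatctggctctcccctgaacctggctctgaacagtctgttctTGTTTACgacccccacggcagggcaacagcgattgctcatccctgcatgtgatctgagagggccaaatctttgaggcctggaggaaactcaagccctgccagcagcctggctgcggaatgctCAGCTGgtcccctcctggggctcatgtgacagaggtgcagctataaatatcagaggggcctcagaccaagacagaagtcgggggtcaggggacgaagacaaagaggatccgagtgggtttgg
Trim54, chr5:31116362-31116661, plus: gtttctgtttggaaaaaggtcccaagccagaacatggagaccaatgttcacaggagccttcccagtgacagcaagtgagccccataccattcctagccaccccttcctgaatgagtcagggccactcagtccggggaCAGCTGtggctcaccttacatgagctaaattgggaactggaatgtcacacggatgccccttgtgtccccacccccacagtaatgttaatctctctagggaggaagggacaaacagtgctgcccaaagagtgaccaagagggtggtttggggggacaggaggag
Fbxo40, chr16:36990418-36990717, minus: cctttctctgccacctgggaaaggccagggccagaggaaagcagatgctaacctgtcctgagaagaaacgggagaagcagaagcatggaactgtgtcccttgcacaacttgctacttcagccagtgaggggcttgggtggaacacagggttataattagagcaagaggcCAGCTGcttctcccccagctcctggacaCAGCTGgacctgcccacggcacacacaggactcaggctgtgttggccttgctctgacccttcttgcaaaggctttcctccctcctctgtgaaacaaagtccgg
The FoxO motif was found at base -194 from the start of Trim63, on the minus strand, and in none of the other 5 promoters. Of 32851 promoters of this length 3.65% hold it. The E-box was found in Trim63 at base -72, in Trim54 at base -113 and in Fbxo40 from base -81 on, with 16.3% of all promoters holding one, and not in Foxo1, Foxo3 or Klhl31. Neither the MEF2 letters CTANNNNTAG (3.69% of promoters) nor a CArG box (1.63%) matched in any of the 6 genes. A match is a description of the letters, not a bound site.

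All 8 genes were well above detection in every library. Per transcript length, Trim54 was the highest in the ventricle, at 140 to 219 TPM, a level scaled by transcript length and library total, with a median of 182.6 over 18 libraries. Trim63 followed with a median of 123.6 TPM and Fbxo40 with 91.5 TPM, Trim55 stood at 45.8 TPM, Fbxo32 at 31.8 TPM and Foxo3 at 25.2 TPM. Klhl31 had a median of 18.2 TPM and Foxo1 was the lowest at 5.54 TPM (4.88 to 6.68). Foxo3 was above Foxo1 in every library of either chamber. The same order held for the medians of the atria except that Trim55 (62.3 TPM) stood above Fbxo40 (55.1 TPM). The ratio of counts to TPM, which follows the mean length of the annotated transcripts used, stayed between 0.970 and 1.01 times the +dox mean of the chamber in all libraries. Fbxo32, Foxo1 and Klhl31 have 1 transcript each in GENCODE vM21, so for them the ratio cannot show a change of transcript. For no gene can it show a transcript that is not annotated.

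Cohort by cohort the genes moved little: the highest cohort mean of a gene exceeded its lowest by 1.09-fold (Foxo1, ventricle) to 1.58-fold (Fbxo32, atria), while libraries of 1 cohort varied with a pooled CV of 4.31% (Trim55, ventricle) to 13.0% (Fbxo32, atria). Fbxo32 had both the widest range of cohort means and the widest spread within cohorts. In the following, levels of a gene are CPM, counts relative to the TMM-scaled library total and not to length, differences are log2 fold changes with their SE, and adjusted p-values are from the quasi-likelihood test of edgeR with Benjamini-Hochberg adjustment over all 19231 genes. A gene passed at an adjusted p below 0.05 and was called when its fold was also at least 1.5. A result is described as lost where its adjusted p was above 0.05 once a library was left out. Since the tissue was sampled in bulk, fewer cells of a type and less RNA per cell cannot be told apart.

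**Figure D1:**
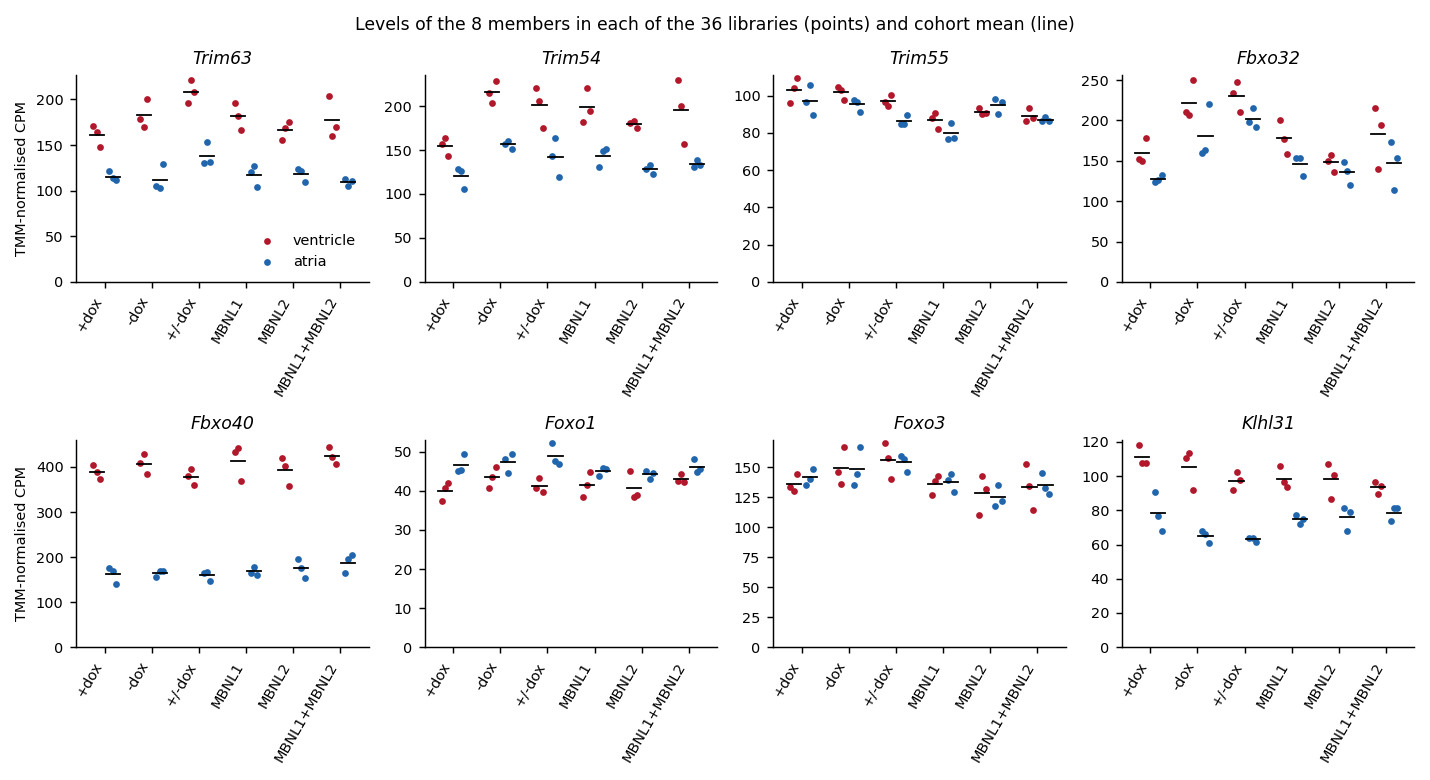
Level of each gene (y axis, TMM-normalised CPM from 0) in the 6 cohorts (x axis), with 1 point for each of the 3 ventricular (red) and 3 atrial (blue) libraries and a line at the cohort mean. Fbxo32 is higher in the –dox and +/–dox cohorts than in +dox mice in both chambers, and Fbxo40 lies at 358.4 to 445.0 in the ventricle against 139.4 to 203.7 in the atria.

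The first question was whether the genes differ when the repeat RNA was never induced. In the ventricle, Trim54 and Fbxo32 were higher in –dox than in +dox mice. Trim54, the ligase of the MuRF family known for microtubules and the Z-disc, was at 156.4, 164.0 and 143.2 CPM in +dox mice and at 214.8, 203.6 and 228.9 CPM in –dox mice. All 3 –dox libraries stood above all 3 +dox libraries, with a difference of 0.48 ± 0.11 (SE, adjusted p = 0.00169), which remained past the threshold under every alternative tried and without any single library. Fbxo32 was at 152.6, 149.4 and 178.4 CPM in +dox mice and at 210.3, 206.2 and 250.0 CPM in –dox mice. Its groups did not overlap either, and the difference was 0.47 ± 0.14 (adjusted p = 0.0181). This result was lost without +dox replicate 1 or 2 or without –dox replicate 3 (highest adjusted p 0.107, difference 0.38 to 0.55). Trim63 was at 147.5 to 170.4 CPM in +dox and at 170.0 to 200.05 CPM in –dox mice. These ranges overlapped at their edges, and the difference of 0.19 ± 0.10 did not pass (adjusted p = 0.172). The other 5 genes lay between -0.08 and 0.14. Thus 2 of 8 genes passed, a share near the 20.9% of all genes tested, and none of the 8 was called with the fold, against 7.6% of all genes. The median of the 8 was 0.13 and that of all genes 0.01.

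When the repeat RNA was turned off at 9 weeks, 3 ligases were higher in the ventricle than in mice that stayed on dox. Trim63 was at 196.3, 221.4 and 207.9 CPM in +/–dox mice against 170.4, 164.1 and 147.5 CPM in +dox mice. The groups were apart and the difference was 0.38 ± 0.10 (adjusted p = 0.00458, no higher than 0.0355 without any single library). Fbxo32 reached 234.0, 247.3 and 210.1 CPM, all above its +dox libraries, a difference of 0.53 ± 0.14 (adjusted p = 0.00845, at most 0.0442 without a single library). Trim54 was at 220.9, 205.9 and 175.4 CPM, 0.38 ± 0.11 above +dox mice (adjusted p = 0.0116), and this result was lost without +dox replicate 3 or +/–dox replicate 1 (highest adjusted p 0.084). The FoxO genes themselves, Foxo1 (0.05 ± 0.07) and Foxo3 (0.20 ± 0.10), did not pass. In this comparison 3 of 8 genes passed, against 21.8% of all genes, and none of 8 was called with the fold, against 6.6%. Fbxo32 was called under voom with library weights (0.61), in library set A alone (0.68, replicates 1 and 2, all males), and without +dox replicate 3 (0.61) or +/–dox replicate 3 (0.59).

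In the atria, which the study took from the same animals, Fbxo32 was again higher and Klhl31 lower in –dox and +/–dox mice. The atrial result is therefore not an independent repeat of the ventricular one. Fbxo32 was at 124.1, 126.5 and 131.9 CPM in +dox mice, at 159.3, 163.7 and 220.1 CPM in –dox mice and at 197.5, 214.8 and 191.9 CPM in +/–dox mice. Every library of the other cohorts stood above the 3 +dox libraries, by 0.51 ± 0.14 for –dox (adjusted p = 0.0147) and by 0.66 ± 0.14 for +/–dox (adjusted p = 0.00229), a fold of 1.58. The +/–dox difference held without any single library (0.59 to 0.69, highest adjusted p 0.0189), while the –dox result was lost without +dox replicate 1 or 2 or without –dox replicate 3, the highest of its 3 libraries (0.34 to 0.59, highest adjusted p 0.152). Klhl31 was at 90.7, 76.7 and 68.1 CPM in +dox mice and fell to 67.7, 66.4 and 60.8 CPM in –dox and to 64.0, 63.9 and 61.6 CPM in +/–dox mice. The lowest +dox library was just above the highest library of the other cohorts, with differences of -0.27 ± 0.09 (adjusted p = 0.0343) and -0.31 ± 0.09 (adjusted p = 0.0181). The –dox result was lost without +dox replicate 1 or 2 or –dox replicate 2 or 3 (highest adjusted p 0.323) and the +/–dox result without +dox replicate 1 or +/–dox replicate 3 (0.223).

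Atrial Trim54 was at 128.6, 125.6 and 106.0 CPM in +dox mice and at 157.1, 160.5 and 151.6 CPM in –dox mice, higher by 0.38 ± 0.11 (adjusted p = 0.0145), and this result was lost without +dox replicate 3 or –dox replicate 2 (highest adjusted p 0.093). In +/–dox atria it was at 143.1, 163.7 and 118.9 CPM and did not pass (0.24 ± 0.11, adjusted p = 0.157). Atrial Trim63 was at 105.4, 102.4 and 128.9 CPM in –dox and at 130.1, 153.1 and 131.2 CPM in +/–dox mice, against 121.1, 113.7 and 111.3 CPM in +dox mice. The –dox libraries overlapped with those of +dox mice and the +/–dox libraries stood above them, and neither difference passed (-0.04 ± 0.10 and 0.26 ± 0.10, adjusted p = 0.827 and 0.0716). In –dox atria 3 of 8 genes passed (15.9% of all genes did) and none was called (5.23%). In +/–dox atria 2 of 8 passed (12.6%) and 1 was called (3.99%). None of the 8 passed the edgeR test of a different response in the atria than in the ventricle, for –dox (1.03% of all genes passed) or for +/–dox (0.692%). None had an unadjusted p below 0.05 there, against 2120 and 2438 of all 19231 genes. The 95% interval of that difference for –dox mice ran from -0.51 to 0.05 for Trim63 and from -0.45 to 0.07 for Klhl31.

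Marker genes of other cells moved with the dox comparisons. Of all genes, 9.64% and 10.6% passed as higher in –dox and +/–dox ventricles (20.9% and 21.8% in either direction). In their atria 7.3% and 5.4% passed as higher (15.9% and 12.6% in either direction). In MBNL1, MBNL2 and MBNL1+MBNL2 ventricles 8.95%, 7.43% and 8.34% passed in either direction. All 5 endothelial markers (Pecam1, Cdh5, Kdr, Tie1 and Egfl7) passed as higher in –dox and in +/–dox ventricles, where their summed TPM was 216.1 to 277.0 and 226.2 to 246.2, against 175.1 to 179.4 in +dox ventricles. In the atria 3 and 1 of 5 passed, with sums of 253.4 to 308.7 and 227.9 to 271.8 against 206.7 to 224.3. The sum of 5 red blood cell genes was 1842 to 4147 and 2354 to 2933 in –dox and +/–dox ventricles against 392.8 to 1243 in +dox ventricles, with none of 5 past the threshold. Those of the 6 cardiomyocyte markers were 27266 to 29466 and 31228 to 32818 against 26084 to 27904. In –dox and +/–dox atria the cardiomyocyte sums were 28995 to 30100 and 29604 to 31505, against 26688 to 27611 in +dox atria. Nppa, Myl7, Myl4, Sln and Bmp10 summed to 54361 to 57755 and 55807 to 60714 in these atria, against 40261 to 43329. The sum of 8 skeletal muscle genes, most of it Acta1 and Ckm, was 1410 to 1767 and 1283 to 1524 in –dox and +/–dox ventricles against 1020 to 1124 in +dox ventricles, with 0 and 1 of the 6 tested past the threshold, and 708.5 to 791.0 and 660.9 to 773.2 in their atria against 505.1 to 601.4, with 3 of 6 past it in each. The 6 fibroblast markers summed to 1427 to 1566 in –dox atria, above the 1078 to 1322 of +dox atria, with 3 of 6 passing as higher. In +/–dox atria their sum of 1238 to 1533 overlapped with that of +dox atria. It was 551 to 670 in –dox ventricles and 692 to 768 in +/–dox ventricles, against 619 to 687 in +dox ventricles. In MBNL1, MBNL2 and MBNL1+MBNL2 ventricles 1, 0 and 1 of the 5 endothelial markers passed, with sums of 183.8 to 246.3. Fibroblast sums there were 676.5 to 776.7, 750.6 to 1057 and 748.6 to 965.3 against 619.1 to 687.0 in +dox ventricles, with 1, 2 and 1 of 6 passing as higher, and skeletal sums were 1126 to 1609, 1301 to 1546 and 1504 to 1682, with none of 6 past the threshold. The part of these cells and genes in the differences of Trim63, Trim54, Trim55, Fbxo32 and Klhl31 was not tested. Total counts were 55031987 to 97091184 per library, and 1 library, MBNL1 ventricle replicate 1, had fewer genes above 0 (16885) than the rest (20578 to 24041). Leaving it out of the fit changed no direction and no call of a member in comparisons that do not use it.

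**Figure D2:**
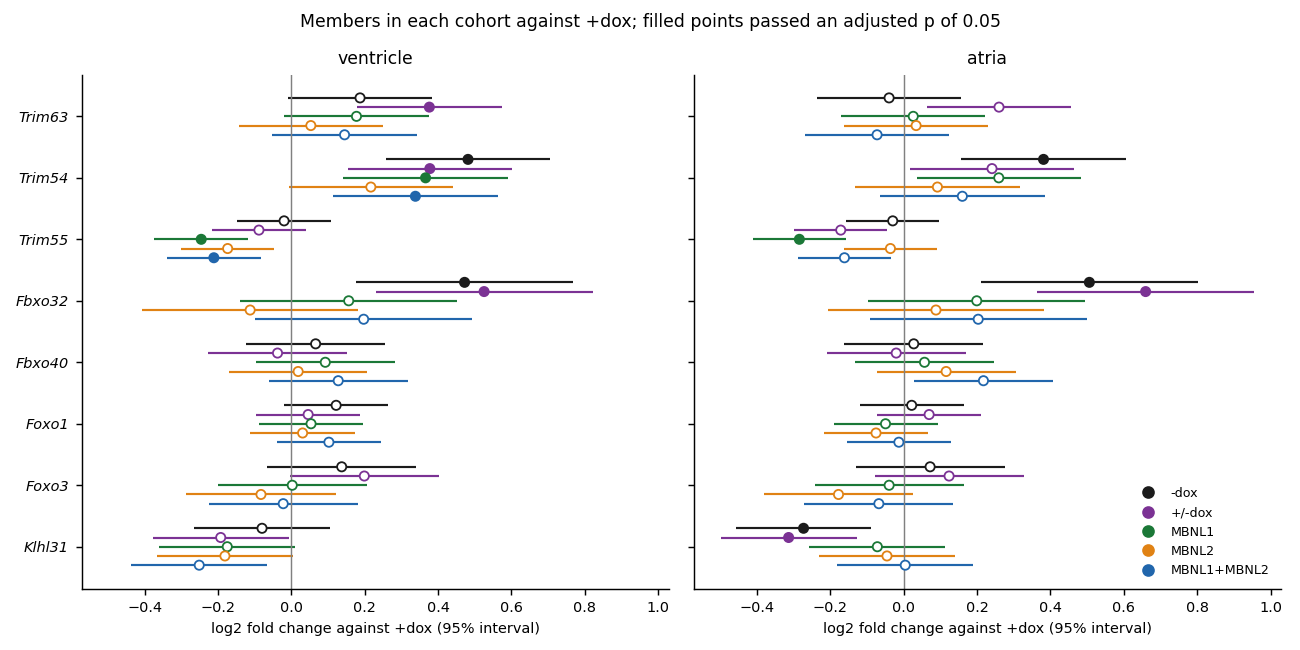
Log2 fold change of each gene against +dox mice (x axis, point, with its 95% interval as a line) in the ventricle (left) and the atria (right), in 1 colour per cohort, filled where the adjusted p was below 0.05. Of 80 points 15 are filled, 10 above 0 and 5 below, where 0.0104% (MBNL2 atria) to 21.8% (+/–dox ventricles) of all genes passed in a comparison. Fbxo32 in +/–dox atria (0.66) is the farthest from 0.

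MBNL proteins are splicing factors that the repeat RNA sequesters, and the next comparisons ask whether overexpressing them while dox continues moved the same genes. Only Trim54, as higher, and Trim55, as lower, passed against +dox mice. Of all genes, 0.0104% (MBNL2 atria) to 8.95% (MBNL1 ventricles) passed in these comparisons. In the ventricle Trim54 was at 181.7, 220.8 and 194.8 CPM with MBNL1 and at 229.7, 199.7 and 156.6 CPM with MBNL1+MBNL2. MBNL1 libraries were all above +dox libraries (0.37 ± 0.11, adjusted p = 0.0311), whereas those of MBNL1+MBNL2 mice overlapped with them (0.34 ± 0.11, adjusted p = 0.0486). The first was lost without +dox replicate 1 or 3 or MBNL1 replicate 2 (highest adjusted p 0.134). The second was lost without any +dox library or MBNL1+MBNL2 replicate 1 or 2 (0.20 to 0.47, highest adjusted p 0.383). In MBNL2 mice Trim54 was at 180.8, 182.5 and 175.3 CPM, again above all +dox libraries, but did not pass (0.22 ± 0.11, adjusted p = 0.235).

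Trim55, which encodes the MuRF that binds titin and microtubules, was lower with MBNL1. In the ventricle it was at 95.8, 103.9 and 109.6 CPM in +dox mice, at 87.9, 90.7 and 82.3 CPM with MBNL1, and at 86.3, 93.1 and 87.7 CPM with both vectors. All 6 libraries stood below the 3 of +dox mice, with differences of -0.25 ± 0.06 (adjusted p = 0.0116) and -0.21 ± 0.06 (adjusted p = 0.0296). In MBNL2 mice it was at 93.2, 90.3 and 90.7 CPM and did not pass (-0.17 ± 0.06, adjusted p = 0.0795). In the atria of MBNL1 mice it was at 76.8, 85.3 and 77.4 CPM against 96.3, 105.9 and 89.5 CPM, with no overlap and a difference of -0.28 ± 0.06 (adjusted p = 0.0249). In –dox mice Trim55 did not pass in either chamber (-0.02 ± 0.06 in the ventricle and -0.03 ± 0.06 in the atria), nor did it in +/–dox ventricles (-0.09 ± 0.06) or +/–dox atria (-0.17 ± 0.06, adjusted p = 0.0643). In the latter it passed without +dox replicate 3 (-0.23, adjusted p = 0.0181), by DESeq2 (-0.17, adjusted p = 0.0419) and under voom (-0.22, adjusted p = 0.00269). These results of Trim55 were lost without +dox replicate 3 or MBNL1 replicate 3 in MBNL1 ventricles (highest adjusted p 0.0742), without +dox replicate 2 or 3 or MBNL1+MBNL2 replicate 1 or 3 in MBNL1+MBNL2 ventricles (0.146), and without +dox replicate 1 or 2 or MBNL1 replicate 1 or 3 in MBNL1 atria (0.274).

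Neither classical ligase passed in an MBNL cohort. Ventricular Fbxo32 was at 201.0, 176.6 and 157.8 CPM with MBNL1, at 150.3, 157.4 and 136.7 CPM with MBNL2, and at 215.9, 139.9 and 194.9 CPM with both. These libraries overlapped with those of +dox mice in all 3 cohorts, and the 95% intervals of the difference were -0.14 to 0.45, -0.41 to 0.18 and -0.10 to 0.49. In library set A alone, which holds only males, Fbxo32 passed in MBNL1 ventricles (0.33, adjusted p = 0.00837). For Trim63 the differences were 0.18, 0.05 and 0.14 in the ventricle and 0.03, 0.03 and -0.07 in the atria, each with an SE of 0.10 and an adjusted p of 0.251 or higher. The intervals for Foxo1 over all 10 comparisons with +dox mice ran from -0.22 to 0.26, those for Foxo3 from -0.38 to 0.40 and those for Fbxo40 from -0.23 to 0.41, and none of the 3 passed in any.

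In all, 2 of 8 genes passed in MBNL1 ventricles (8.95% of all genes), none in MBNL2 ventricles (7.43%) and 2 in MBNL1+MBNL2 ventricles (8.34%). In the atria 1 passed with MBNL1 (0.348%), none with MBNL2 (0.0104%) and none with MBNL1+MBNL2 (0.686%). For the 3 comparisons with none, the counts at an unadjusted p below 0.05 in edgeR were 1, 0 and 2 of 8. Of all 19231 genes, 4294, 831 and 1924 were below it, and DESeq2 also passed none of the 8. No gene was called with the fold in any of these 6 comparisons, in which 2.66%, 1.52% and 2.65% of all genes were called in the ventricle and 0.13%, 0.0052% and 0.26% in the atria. At an unadjusted p below 0.05 there were 24 differences among the 80 of all comparisons with +dox mice. Of all 19231 genes, 831 (MBNL2 atria) to 6367 (+/–dox ventricles) were below it in a comparison. By the leading digits of their names the libraries form 2 sets, and all MBNL1+MBNL2 libraries are in set B, which holds only replicate 3 of the other cohorts. Set and sex therefore cannot be told apart within those 5 cohorts, and the set B fit compares MBNL1+MBNL2 males with females. The fit of males alone sets MBNL1+MBNL2 libraries of set B against set A, and sex as a term does not separate the sets either. Within set B neither Trim54 (0.45, adjusted p = 0.231) nor Trim55 (-0.30, adjusted p = 0.17) passed in MBNL1+MBNL2 ventricles, a fit in which the lone library of each other cohort is taken to vary as much as the MBNL1+MBNL2 libraries do. With sex as a term Trim54 (0.30, adjusted p = 0.0481) and Trim55 (-0.22, adjusted p = 0.0154) passed, as did Klhl31 (-0.28, adjusted p = 0.0293), and among the males alone Trim54 (0.29, adjusted p = 0.128), Trim55 (-0.17, adjusted p = 0.106) and Klhl31 (-0.27, adjusted p = 0.072) did not. None of the 8 passed the test of a different atrial and ventricular response to MBNL1 (0.0312% of all genes), MBNL2 (0.0364%) or MBNL1+MBNL2 (0.0728%). Klhl31 in MBNL1+MBNL2 mice had the lowest unadjusted p of all 40 such tests (0.0528).

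The MBNL cohorts were also set against +/–dox mice, which shared the first 9 weeks of dox and then had none. These comparisons share the +/–dox libraries with each other and with the test of +/–dox against +dox mice. Fbxo32 was lower with MBNL2 in both chambers, at -0.64 ± 0.14 in the ventricle (adjusted p = 0.0073, past the fold) and -0.57 ± 0.14 in the atria (adjusted p = 0.00887). Its 3 ventricular MBNL2 libraries (136.7 to 157.4 CPM) and 3 atrial ones (120.0 to 149.1 CPM) stood below all +/–dox libraries. The ventricular result was lost without +/–dox replicate 2 (adjusted p = 0.0509), and the atrial result without +/–dox replicate 2 or MBNL2 replicate 3 (highest 0.0522). In MBNL1 and MBNL1+MBNL2 mice Fbxo32 differed by -0.37 and -0.33 in the ventricle and by -0.46 and -0.46 in the atria, and did not pass (adjusted p = 0.174, 0.278, 0.0616 and 0.0504).

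Trim63 was lower than in +/–dox mice in MBNL2 ventricles (-0.32 ± 0.10, adjusted p = 0.0409) and in MBNL1+MBNL2 atria (-0.33 ± 0.10, adjusted p = 0.0292). The first was lost without any 1 of the 6 libraries compared (highest adjusted p 0.2), and the second without +/–dox replicate 2 or MBNL1+MBNL2 replicate 2 or 3 (0.237). Klhl31 was higher than in +/–dox atria with MBNL2 (0.27 ± 0.09, adjusted p = 0.0498) and with MBNL1+MBNL2 (0.32 ± 0.09, adjusted p = 0.0265), and Foxo3 was lower with MBNL2 (-0.30 ± 0.10, adjusted p = 0.0436). Each of these 3 was lost without any +/–dox library and without 2 of the 3 MBNL libraries, 1 and 3 for MBNL2 and 2 and 3 for MBNL1+MBNL2 (highest adjusted p 0.228, 0.115 and 0.191). Among the males alone Klhl31 did not pass in MBNL1+MBNL2 atria (0.30, adjusted p = 0.057), and Trim63 did (-0.37, adjusted p = 0.012). In that fit cohort and library set cannot be told apart. With the number of the replicate as a block, 4 rather than 2 genes passed in MBNL1+MBNL2 atria.

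Of the 8 genes, 2 passed against +/–dox in MBNL2 ventricles (5.39% of all genes, and 1 of 8 with the fold against 1.57%), 3 in MBNL2 atria (11%) and 2 in MBNL1+MBNL2 atria (6.86%). None passed in MBNL1 ventricles (2.67%), MBNL1+MBNL2 ventricles (1.77%) or MBNL1 atria (4.6%). In each of these, 3 of 8 had an unadjusted p below 0.05 by edgeR, against 3254, 2821 and 3267 of all 19231 genes. DESeq2 passed 0, 0 and 1 of the 8. Between mice that never received dox and +/–dox mice none of the 8 passed in edgeR or DESeq2, in the ventricle (0.0572% of all genes passed) or in the atria (0.0208%). Below an unadjusted p of 0.05 in edgeR were 0 of 8 and 1586 of all 19231 genes in the ventricle, and 2 of 8 and 907 genes in the atria. Trim63 had an unadjusted p of 0.0037 in the atria (-0.30 ± 0.10), with its 3 –dox libraries below its 3 +/–dox libraries.

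Between the chambers Fbxo40 stood apart, with a wider difference than between any cohorts of 1 chamber. It was at 374.4 to 403.6 CPM in +dox ventricles and at 139.4 to 175.8 CPM in +dox atria, a difference of -1.27 ± 0.09 (adjusted p = 9.16e-13). Over the 6 cohorts its difference ran from -1.30 to -1.17, called in all 6, and no atrial library reached the lowest ventricular one. On the TPM scale the difference was smaller, -0.80 to -0.64, and still without overlap in any cohort. The other F-box gene, Fbxo32, did not pass in any cohort by edgeR (-0.33 to -0.13, unadjusted p below 0.05 in 3 of 6 cohorts, +dox, –dox and MBNL1+MBNL2).

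Trim63, Trim54 and Klhl31 were lower in the atria by CPM, and this direction did not hold by TPM. By CPM they passed in all 6 cohorts, at -0.71 to -0.48 for Trim63, -0.54 to -0.36 for Trim54 and -0.70 to -0.25 for Klhl31. By log2(TPM + 1) the same libraries gave -0.16 to 0.06, -0.12 to 0.17 and -0.14 to 0.27, and the median of all genes moved by 0.19 to 0.30 between the scales. Trim55, Fbxo32 and Foxo3 were each above 0 by TPM in all 6 cohorts (lowest 0.32, 0.20 and 0.32) and reached no more than 0.05, -0.13 and 0.06 by CPM. Foxo1 was above 0 on either scale in all 6 cohorts, at 0.11 to 0.25 by CPM, where it passed in +dox and +/–dox mice, and at 0.42 to 0.67 by TPM.

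**Figure D3:**
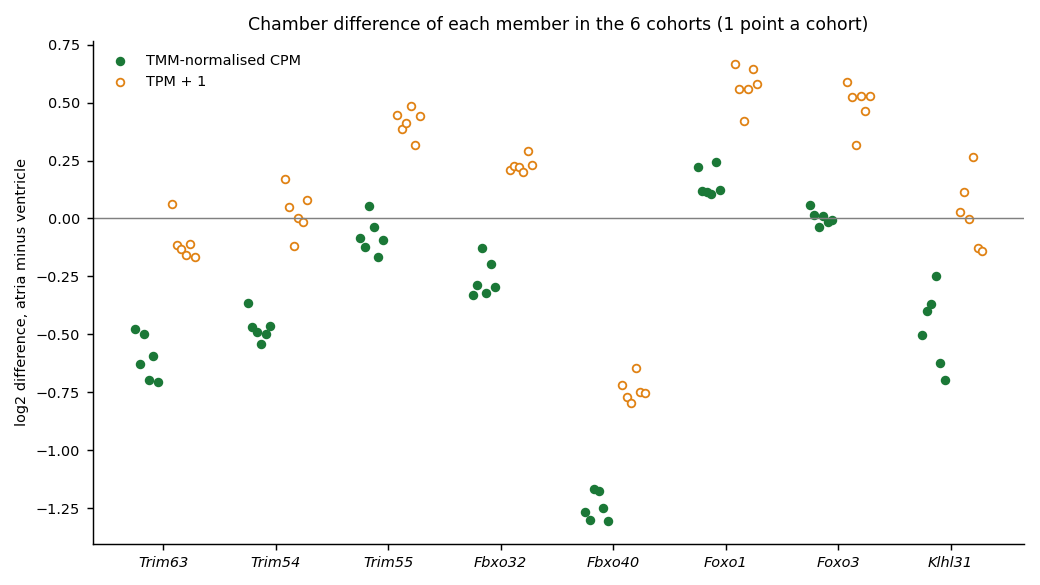
Log2 difference of the atria minus the ventricle (y axis) for each gene (x axis), with 1 point for each of the 6 cohorts, from TMM-normalised CPM (filled) and from TPM with 1 added (open). Fbxo40 is below 0 and Foxo1 above 0 on either scale, while Trim63, Trim54 and Klhl31 move from below 0 to both sides of it.

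By CPM, 5 of 8 genes passed between the chambers of +dox mice (43.6% of all genes) and 1 was called with the fold (25%). In –dox mice 4 passed (42.6%) and 3 were called (24.9%), and after removal of dox 6 passed (41.9%) and 3 were called (24.2%). With MBNL1, 4 passed (43.3%) and 2 were called (25.3%). With MBNL2, 4 passed (39.2%) and 1 was called (21.7%). With both, 4 passed (41.7%) and 2 were called (24.1%). The counts called lay on both sides of these shares. Marker genes of the chambers matched the labels. The summed TPM of Myl2, Myl3 and Irx4 was 19777 to 27744 in ventricles and 38.4 to 804.8 in atria, and that of Nppa, Myl7, Myl4, Sln and Bmp10 was 40261 to 61759 in atria and 92.2 to 1007 in ventricles. Of 8 genes of skeletal muscle, the tissue these ligases are best known from, the myosins Myh1, Myh2 and Myh4 were at no more than 0.07 TPM in any library and Tnni2, Tnnt3 and Mylpf at no more than 3.07 TPM, while Acta1 and Ckm, which heart muscle also makes, reached 882.6 and 1250 TPM.

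The pathway around the members was followed with 9 lists. Downstream, subunits of the proteasome, which degrades what the ligases mark, passed mostly as lower in –dox and +/–dox mice. In –dox ventricles 10 of 31 passed as lower and none as higher, and 11.3% of all genes were lower. The counts were 12 lower and 1 higher of 31 in +/–dox ventricles (11.1% of all genes lower), 6 lower of 31 in –dox atria (8.62%) and 3 lower of 31 in +/–dox atria (7.21%). Their medians were -0.15, -0.16, -0.13 and -0.09, against 0.01, 0.00, 0.03 and 0.03 for all genes, and none was called with the fold. Psma5, a subunit of the outer ring of the 20S core, had the lowest value in –dox ventricles (-0.34 ± 0.08, adjusted p = 0.00234) and was chosen after its values were seen. In MBNL2 ventricles 7 of 31 subunits were lower (4.31% of all genes), in MBNL1 ventricles 2 (4.96%) and in MBNL1+MBNL2 ventricles 1 (5.17%).

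For the lists that follow, the shares of all genes that passed as higher and as lower were 9.64% and 11.3% in –dox ventricles, 10.6% and 11.1% in +/–dox ventricles, 7.3% and 8.62% in –dox atria and 5.4% and 7.21% in +/–dox atria. Of the 15 genes for ubiquitin, its E1 and E2 enzymes none passed in –dox mice of either chamber and 2 were lower in +/–dox mice of each. Of 5 SCF and cullin subunits tested 1 was lower in –dox mice of each chamber and 2 in +/–dox mice of each. Among 13 other ligases and cofactors studied in muscle, 2 were higher and 2 lower in –dox ventricles and 5 higher and 1 lower in +/–dox ventricles. Fbxl22, an F-box protein of the cardiac Z-disc, was the only gene of this list called against +dox mice, in +/–dox atria (-0.70, adjusted p = 0.00154), MBNL1 ventricles (-0.61, adjusted p = 0.00855) and MBNL1+MBNL2 ventricles (-0.61, adjusted p = 0.00795). Among autophagy and lysosome genes, the other arm of degradation under FoxO, 2 of 16 were higher and 2 lower in –dox ventricles, and 4 were higher and 1 lower in –dox atria.

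**Figure D4:**
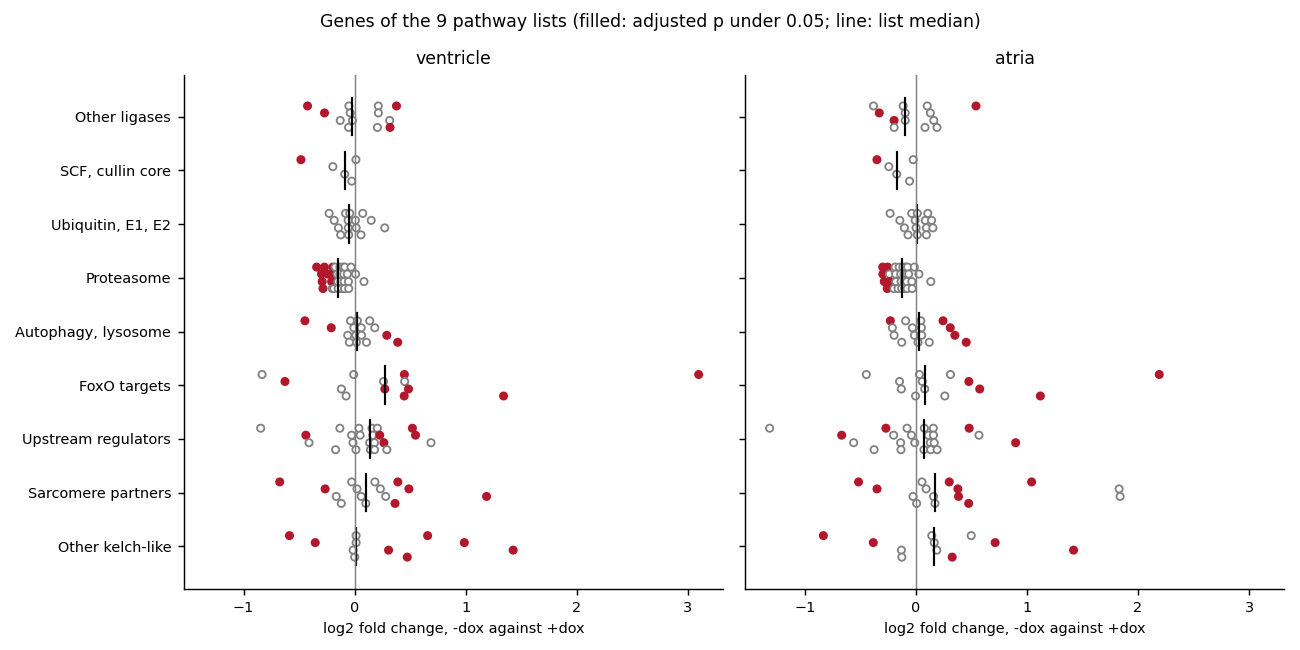
Log2 fold change of –dox against +dox mice (x axis) for each gene of the 9 pathway lists (y axis) in the ventricle (left) and the atria (right), filled in red where the adjusted p was below 0.05, with a line at the median of each list. Proteasome subunits form a narrow cloud below 0 (10 of 31 filled in the ventricle), and Pdk4 at 3.10 is the farthest point to the right.

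Known FoxO targets outside proteolysis passed more often as higher than as lower in –dox mice. In –dox ventricles 6 of 13 were higher and 1 lower (9.64% and 11.3% of all genes), with a median of 0.27 against 0.01 for all genes, and in –dox atria 4 of 13 were higher and none lower (7.3% and 8.62%), with a median of 0.08 against 0.03. Txnip, which limits glucose uptake, was higher by 1.34 in the ventricle (adjusted p = 0.0143) and by 1.12 in the atria (adjusted p = 0.0475). In +/–dox mice it passed in the ventricle (1.37, adjusted p = 0.0122) and not in the atria (0.98, adjusted p = 0.101). Pdk4, the kinase that turns off pyruvate dehydrogenase, had the widest difference of the list, 3.10 in the ventricle and 2.19 in the atria. In +/–dox mice Pdk4 was higher by 2.79 and 1.98 and passed in both chambers. Ccng2, an atypical cyclin, was higher by 0.45 and 0.57 (adjusted p = 0.00772 and 0.00102). In +/–dox mice Ccng2 was higher by 0.37 and 0.75 (adjusted p = 0.0268 and 6.6e-05). In the other direction Gadd45a was lower in –dox ventricles (-0.63, adjusted p = 0.0226) and did not pass in +/–dox ventricles (-0.30, adjusted p = 0.312). Cdkn1a, a cell cycle inhibitor, was lower in +/–dox ventricles (-1.34, adjusted p = 0.023) and did not pass in –dox ventricles (-0.83, adjusted p = 0.165). Neither passed in the atria. Pdk4 also passed in MBNL1 (1.74, adjusted p = 0.0286) and MBNL1+MBNL2 ventricles (2.41, adjusted p = 0.00345), and with MBNL2 it was at 1.36 (adjusted p = 0.0916).

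Upstream, 4 of 23 regulators tested were higher and 1 lower in –dox ventricles (9.64% and 11.3% of all genes), in all a share close to the 20.9% of all genes that passed. Akt1, the kinase that holds FoxO proteins out of the nucleus, was lower in –dox and +/–dox ventricles (-0.44 and -0.47, adjusted p = 0.00081 and 0.000443) and atria (-0.67 and -0.78, adjusted p = 5.17e-06 and 5.1e-07). It was also lower in all 3 MBNL ventricles (-0.40, -0.37 and -0.68), and in MBNL1+MBNL2 atria (-0.48, adjusted p = 0.00779). Klf15, a glucocorticoid target known to act on Trim63 and Fbxo32, was higher in –dox (0.52 and 0.48) and +/–dox mice (0.65 and 0.46) of the ventricle and atria, and passed in all 4. Fkbp5, another glucocorticoid target, passed in –dox atria (0.90, adjusted p = 0.0204) and MBNL1+MBNL2 ventricles (0.87, adjusted p = 0.0416) and not in +/–dox mice (0.17 and 0.33).

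Among 15 sarcomere partners and reported substrates, 4 were higher and 2 lower in –dox ventricles (9.64% and 11.3% of all genes) and 7 and 2 in +/–dox ventricles (10.6% and 11.1%). Myot, which encodes the Z-disc protein myotilin, was higher by 1.19 in –dox ventricles (adjusted p = 0.000439), and Nebl, which encodes nebulette, was lower in –dox ventricles (-0.67, adjusted p = 3.1e-06) and in all 3 MBNL ventricles (-0.44, -0.46 and -0.48). Tcap, the titin cap and a MuRF1 partner, was higher in +/–dox (0.79, adjusted p = 0.00351) and MBNL1 ventricles (0.61, adjusted p = 0.0423). It did not pass in –dox (0.28, adjusted p = 0.327), MBNL2 or MBNL1+MBNL2 ventricles, or in the atria of any cohort. Tnnt2, cardiac troponin T, was higher by 0.49 and 0.64 in –dox and +/–dox ventricles and did not pass in an MBNL cohort (-0.08 to 0.16).

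Kelch-like relatives of Klhl31 were followed as well. Of 11, 5 were higher and 2 lower in –dox ventricles (9.64% and 11.3% of all genes), with 3 and 1 called (3.47% and 4.13%). Kbtbd12 was higher by 1.43 ± 0.11 in –dox ventricles (101.3 against 37.7 CPM, adjusted p = 9.8e-11) and by 1.42 in –dox atria, and it passed in MBNL1 (0.79, adjusted p = 4.12e-05) and MBNL1+MBNL2 ventricles (0.93, adjusted p = 2.53e-06) and not in MBNL2 ventricles (0.19, adjusted p = 0.313). Klhl40, which stabilises thin filament proteins, was higher by 0.99 in –dox ventricles and 0.71 in –dox atria. Klhl38 was higher by 1.06 in +/–dox ventricles (adjusted p = 0.000397). Klhl30 was lower in –dox ventricles (-0.59, adjusted p = 0.000187) and –dox atria (-0.83, adjusted p = 1.95e-06). Ventricular Klhl31 itself was at 118.3, 107.7 and 107.9 CPM in +dox and at 110.5, 113.4 and 92.0 CPM in –dox mice, and did not pass (-0.08 ± 0.09).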

How the data were processed

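Poly(A) RNA of 36 heart samples, 3 per cohort and chamber, had been sequenced as stranded paired reads. The authors aligned the reads with STAR 2.7.10b and quantified genes with RSEM 1.3.1 on mm10 with GENCODE M25. They deposited RSEM expected counts for 55291 symbols, and TPM, which RSEM scales by transcript length and to a common total (deposited as a separate table). Whether RSEM counted by strand is not given in the sources used here.

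From these, expected counts were rounded, filtered with filterByExpr (19231 genes kept) and TMM-normalised, and 12 group means were fitted to all 36 libraries with the robust quasi-likelihood test of edgeR 4.0.16 (limma 3.58.1, R 4.3.3), leaving 24 residual degrees of freedom. P-values were adjusted per comparison over 29 comparisons of cohorts, chambers and their interactions. The 95% intervals use the same fit. In counts simulated for –dox against +dox ventricles (19231 genes), 50 genes were changed at each fold. Of those changed 1.3, 1.5, 2 and 3 fold, 24%, 42%, 68% and 72% passed. In the data 20.9% of all genes passed in this comparison, so the adjustment was stricter in the simulation, where few genes changed. These shares are also not split by expression level, and therefore do not give the power for the members. The labels call the 3 libraries of a group biological replicates, and the study took them from 3 animals per cohort, the same for both chambers. The main fit treats the chambers as independent samples. Sex was read from Xist (above 1 TPM as female). Labels do not give it.

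The 8 members and the pathway and marker lists were chosen with earlier results of these data known. Members are all named. Of each pathway list the genes called in –dox or +/–dox against +dox mice are named, at most the 5 with the widest difference in –dox mice of either chamber, and 1 proteasome gene was added after its values were seen. No member was called in –dox against +dox mice, so genes of most similar pattern, to be named only then, are not given. Gene positions are from GENCODE vM21 and promoter sequences from RefSeq on GRCm38.p6. Samples with the same number deviated together (every correlation above 0.1) only between the chambers of +dox (0.152 to 0.257), –dox (0.123 to 0.243) and MBNL2 mice (0.110 to 0.190). Alternatives were DESeq2 size factors and the DESeq2 1.42.0 Wald test, no filter, voom with library weights, limma on log2(TPM + 1), fewer libraries, a replicate block, library set as a term, library set A or B only, sex as a term and males only (MBNL1+MBNL2 comparisons), no fold limit and each library left out in turn.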

Additional observations from a re-analysis of the deposited data

How the results depend on the processing

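Trim54 in –dox ventricles, Trim63 and Fbxo32 in +/–dox ventricles and Fbxo32 in +/–dox atria passed against +dox mice under every alternative run for them and without any single library compared. Of the values of single members under alternatives other than a left-out library, 1098 kept direction and side of the threshold, 17 newly passed, 48 no longer passed and 9 reversed, and of the counts of members 555 stayed within 1.5 times and 62 did not. All reversals were in atria against ventricles by log2(TPM + 1). Klhl31 was at 0.030 in +dox, 0.11 in MBNL1 and 0.27 in MBNL1+MBNL2 mice. Trim54 was at 0.17 in +dox, 0.081 in –dox, 0.051 in MBNL1 and 0.0021 in MBNL1+MBNL2 mice. Trim63 was at 0.061 in +dox and Trim55 at 0.32 in +/–dox mice. The median of all genes moved by 0.19 to 0.30 between the scales. The cause of the reversals and of the other changes was not tested.

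With no fold limit, the members called against +dox became 2 (–dox, MBNL1 and MBNL1+MBNL2) and 3 (+/–dox) in the ventricle and 3 (–dox), 2 (+/–dox) and 1 (MBNL1) in the atria. Against +/–dox they became 2 (MBNL2 ventricle), 3 (MBNL2 atria) and 2 (MBNL1+MBNL2 atria), and between chambers 5 in +dox, 6 in +/–dox and 4 in each MBNL cohort. Otherwise the members called became 1 in +/–dox ventricles under voom and in set A only, 0 in MBNL2 ventricles against +/–dox by TPM, and between chambers 3 in +dox and 1 in –dox, MBNL1 and MBNL1+MBNL2 mice by TPM and 1 in MBNL1 mice under voom.

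The members past the adjusted p against +dox changed as follows. In the ventricle they became 1 in –dox with no filter, 5 in +/–dox under voom, 1 in MBNL1 by TPM and with the 18 libraries of the chamber and 0 with the 6 compared, and 1 in MBNL2 by TPM. In MBNL1+MBNL2 ventricles they became 1 with DESeq2 size factors and by TPM, and 0 with no filter, under voom, with 18 or 6 libraries, in set B only and in males only. In the atria they became 4 in +/–dox under voom and in set A only, 0 in MBNL1 with no filter, by TPM, with 6 libraries and in set A only, and 1 in MBNL1+MBNL2 under voom and with library set as a term.

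The members past the adjusted p against +/–dox became, in the ventricle, 1 in MBNL1 under voom and in set A only, 1 in MBNL2 by TPM and with 18 libraries, and 1 in MBNL1+MBNL2 with library set as a term. In the atria they became 1 under voom and 2 in set A only for –dox, 1 for MBNL1 by DESeq2, by TPM and in set A only and 2 under voom and with 6 libraries, 1 for MBNL2 with no filter, and for MBNL1+MBNL2 4 under voom, 0 in set B only and 1 in males only. With replicate number as a block, MBNL1+MBNL2 atria against +/–dox had 4 members past the adjusted p. Neither this block nor pairing the chambers by number moved another count of members by over 1.5 times.

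Without 1 library at a time, the members called ranged from 0 to 1 in +/–dox ventricles and –dox atria against +dox and in MBNL2 ventricles, MBNL2 atria and MBNL1+MBNL2 atria against +/–dox, from 1 to 2 between the chambers of +dox and MBNL1 mice and from 1 to 3 between those of MBNL1+MBNL2 mice. The members past the adjusted p against +dox ranged from 1 to 2 (–dox ventricle), 0 to 2 (MBNL1 ventricle), 0 to 1 (MBNL1+MBNL2 ventricle and MBNL1 atria) and 1 to 3 (–dox and +/–dox atria), those against +/–dox from 0 to 1 (MBNL2 and MBNL1+MBNL2 ventricles), 0 to 3 (MBNL2 atria) and 0 to 4 (MBNL1+MBNL2 atria), and those between +dox chambers from 3 to 5. The uses of set B only, of sex as a term, of males only and of a fit without ventricular MBNL1 replicate 1 were chosen after seeing the data. Members had at least 2294 expected counts in every library, so their precision is limited by the spread between libraries more than by depth.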
